A study of Mus musculus with 5 samples.

Results

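The genes followed here are 7 amino acid transporters, Slc38a5, Slc38a3, Slc38a1, Slc38a2, Slc7a5, Slc3a2 and Slc1a1, out of the 31053 genes in the count tables of mouse ovarian cells. They were chosen by their UMI levels in antral granulosa clusters of these same cells, so their levels by cluster, cell class and age are a description with no test. Untreated C57BL6/J mice gave ovaries at weekly ages from 2 to 6 wk, which were dissociated with trypsin and sorted for live cells. Each age was sequenced as 1 library of 3′ ends (10x Genomics), so no age has a replicate. How many mice went into a library was not found in the sources used here. Levels are UMIs (distinct RNA molecules) of a gene summed over the cells of a group, scaled to counts per 1000000 UMIs of those cells (CPM). Square brackets hold 95% intervals, which cover counting error only.

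Granulosa cells surround and feed the oocyte. Cumulus cells next to the oocyte take up amino acids that the oocyte takes up poorly and pass them on through gap junctions, while mural granulosa cells line the wall of the antral follicle and make steroid hormones. Slc38a3 (SNAT3) and Slc38a5 (SNAT5) are system N carriers of glutamine, histidine and asparagine, and Slc38a1 (SNAT1) and Slc38a2 (SNAT2) are system A carriers of small neutral amino acids. Slc7a5 (LAT1) exchanges large neutral amino acids such as leucine and needs the protein of Slc3a2 (CD98 heavy chain) to reach the cell surface. Slc1a1 (EAAT3) takes up glutamate, aspartate and cysteine.

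On the build GRCm38, GENCODE places Slc38a5 at chrX:8271133-8280179 (plus strand), Slc38a3 at chr9:107650634-107669530 (minus), Slc38a1 at chr15:96571418-96642913 (minus) and Slc38a2 at chr15:96687392-96699730 (minus). Slc7a5 is at chr8:121881150-121907694 (minus), Slc3a2 at chr19:8706882-8723369 (minus) and Slc1a1 at chr19:28835049-28913960 (plus). RefSeq promoter windows (GRCm38.p6) matched 4 of the 7 genes. The 250 bases before the RefSeq start are shown for Slc38a5, at chrX:8271131-8271380 (plus strand), and Slc3a2, at chr19:8713898-8714147 (minus strand), because the first was higher and the second lower at 5 wk than at 2 wk. Capitals mark the GC box GGGCGG and the E-box CACGTG, on either strand.
Slc38a5: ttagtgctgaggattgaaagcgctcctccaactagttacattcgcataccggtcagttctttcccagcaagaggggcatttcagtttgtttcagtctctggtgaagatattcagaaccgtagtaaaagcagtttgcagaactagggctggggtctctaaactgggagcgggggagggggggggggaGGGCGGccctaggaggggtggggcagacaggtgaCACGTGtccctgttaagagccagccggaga
Slc3a2: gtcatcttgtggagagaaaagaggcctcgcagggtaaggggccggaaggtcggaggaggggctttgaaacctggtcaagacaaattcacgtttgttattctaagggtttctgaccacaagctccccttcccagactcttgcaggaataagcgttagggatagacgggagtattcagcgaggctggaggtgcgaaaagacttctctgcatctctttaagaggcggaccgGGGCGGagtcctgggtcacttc
Both windows overlap the GENCODE gene, since the RefSeq start used lies inside it. GGGCGG was in all 4 windows held for these genes and in 32.7% of the 32851 RefSeq windows of the same length. CACGTG was in the Slc38a5 window alone of the 4, and in 6.02% of all windows. The other motifs searched on both strands were in none of the 4 windows. They were TGATGNAA (in 3.45% of all windows) and its case TGATGCAA (0.791%), TGACGT (6.47%) and the longer TGACGTCA (1.55%), AAGGTCA (4.08%) and the longer CAAGGTCA (1.33%), TGTTTAC (3.17%), AGATAA (9.99%), CCAAT (33.8%) and TATAAA (12.4%). A match is a run of letters, not a site shown to be bound.

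The libraries held 7779 to 11077 cells and 93438618 to 144609431 UMIs each, and 273 of 47890 cell barcodes occurred in more than 1 library. Of 48163 cells, 17971 were granulosa-like, 22010 were of other named classes and 8182 were unnamed. The granulosa-like cells were clustered again, with the listed amino acid transporters left out of the clustered genes, into 16 clusters. Clusters 1, 3, 8 and 9 were preantral-like, and replication genes led cluster 9. Cluster 5 was antral-like and mural-like, led by Inhba, Cyp11a1 and Cyp19a1. Clusters 4, 6, 11 and 12 were dividing cells. Clusters 0, 2, 7 and 10 carried markers of remodeling (atretic) follicles, although interferon-response genes such as Ifi204 led cluster 10. In cluster 10, 5 remodeling and 4 preantral markers were detected and its primordial marker score was the highest of the clusters, so its scores go against the name. Clusters 13 (leading genes with more markers of another stage), 14 (42.7% of cells called doublets) and 15 (low UMI counts) stayed unnamed.

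No cluster could be called cumulus-like. Among antral-like and dividing clusters the cumulus markers scored highest in cluster 4, with 3 of 10 detected, but DNA replication genes (Pclaf, Uhrf1, Cdc6) led it. Against cluster 5, the cumulus markers Amh (median ratio 3.57) and Gatm (7.29) were at least 1.5-fold higher in cluster 4 in every library, the other 8 were not, and 5 of 8 mural markers were at least 1.5-fold lower. Both clusters were picked by these markers, so the marker ratios restate that choice. Cluster 4 over cluster 5 is given below by cluster number. In it, dividing state and position in the follicle cannot be told apart, and it is not a measure of cumulus over mural cells.

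Slc38a5 was low in granulosa-like cells at 2 wk and much higher from 4 wk. Its level in granulosa-like cells was 7.30 CPM [6.60, 8.05] at 2 wk, 57.8 [55.6, 60.0] at 3 wk, 210.1 [207, 213] at 4 wk, 279 [274, 284] at 5 wk and 218 [215, 221] at 6 wk. The level was highest at 5 wk, and no interval overlapped that of another age. Relative to all other named cells the ratio was 0.241 [0.216, 0.269] at 2 wk, 3.13 [2.89, 3.40] at 3 wk, 9.33 [8.69, 10.0] at 4 wk, 13.0 [12.2, 13.8] at 5 wk and 8.94 [8.47, 9.45] at 6 wk, so granulosa-like cells were the lower group at 2 wk and the higher one afterwards. Stromal-like cells gave 1786 of the 1856 Slc38a5 UMIs of the other named cells at 2 wk, at 38.6 CPM, and held 24.0 to 30.1 CPM later. Hematopoietic-like cells, which should lack granulosa transcripts and so give a level for free RNA, held 1.59 CPM at 2 wk, 2.53 at 3 wk, 17.6 at 4 wk, 20.4 at 5 wk and 19.9 at 6 wk. Smooth muscle-like cells held less from 4 wk, with 8.92 CPM at 4 wk, 4.84 at 5 wk and 4.96 at 6 wk, so the free RNA level is known only as a range. The make-up of the granulosa-like cells also differed by age. Preantral-like cells were 1669 of 3015 at 2 wk and 900 of 5098 at 4 wk, and remodeling-like cells 586 and 2238. The part of this in the levels of any member pooled over granulosa-like cells was not tested.

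Within granulosa-like cells Slc38a5 was high in the antral-like cluster 5 and in dividing clusters and low in preantral-like ones. The unnamed cluster 13, with 5 antral and 4 mural markers detected, held 80.6 to 118 CPM at 4 to 6 wk, below cluster 5. The mural-like cluster 5 held 20.8 CPM at 2 wk, 197 at 3 wk, 248 at 4 wk, 346 at 5 wk and 224 at 6 wk, and the preantral-like clusters together held 3.52 CPM at 2 wk, 6.28 at 3 wk, 30.7 at 4 wk, 39.3 at 5 wk and 37.7 at 6 wk. The antral-like group, which is cluster 5 alone, was higher in each library, with a ratio of 5.92 [4.07, 8.48] at 2 wk, 31.4 [25.8, 38.4] at 3 wk, 8.07 [7.07, 9.23] at 4 wk, 8.80 [7.73, 10.0] at 5 wk and 5.94 [5.38, 6.56] at 6 wk. The preantral-like level at 2 wk lay between those of hematopoietic-like (1.59 CPM) and smooth muscle-like cells (4.95 CPM). At 3 wk it was not far above them (2.53 and 3.96 CPM). The divisor at 2 and 3 wk is thus near the free RNA level, and the size of these 2 ratios is uncertain. Of the 6 members with at least 200 UMIs in this comparison, Slc38a5 alone was at least 1.5-fold higher in every library and none was 1.5-fold lower, where 2.79% of 11108 genes were higher and 5.08% lower. This call is lost at a clustering resolution of 0.6 in place of 1, where the ratio was 5.14 at 2 wk, 9.44 at 3 wk, 1.39 at 4 wk, 1.46 at 5 wk and 1.57 at 6 wk, while without integration of the libraries Slc38a3 passed too. Without integration the antral-like group also held the cluster of highest cumulus score. The preantral-like clusters were not alike. Clusters 3 and 8 held 7.32 to 11.7 CPM at 4 to 6 wk, below hematopoietic-like cells at each of these ages and, but for cluster 3 at 4 wk, above smooth muscle-like cells, so no expression above free RNA is read from them, whereas clusters 1 and 9 held 25.1 to 78.5 CPM.

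Cluster 12, cells late in mitosis (Cenpa, Ccnb2, Cdc20), had the highest Slc38a5 of the clusters from 4 wk, at 475 CPM [454, 497] at 4 wk, 552 [519, 586] at 5 wk and 456 [434, 480.0] at 6 wk. At 2 and 3 wk the mural-like cluster had the highest value, but at 3 wk its interval [182, 214] overlapped that of cluster 12 [170.0, 212], which was at 190.0 CPM. At 2 wk it overlapped that of cluster 0 in the same way. Cluster 0, remodeling-like with 2 antral markers, held 19.0 CPM at 2 wk, 23.4 at 3 wk, 254 at 4 wk, 376 at 5 wk and 350.2 at 6 wk, so at 3 wk it was still near its 2 wk level when the mural-like cluster was not. The other remodeling-like clusters were lower, with 98.2 CPM at 4 wk, 176 at 5 wk and 178 at 6 wk in cluster 2 and 25.0 CPM at 4 wk, 47.6 at 5 wk and 55.7 at 6 wk in cluster 7.

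**Figure D1:**
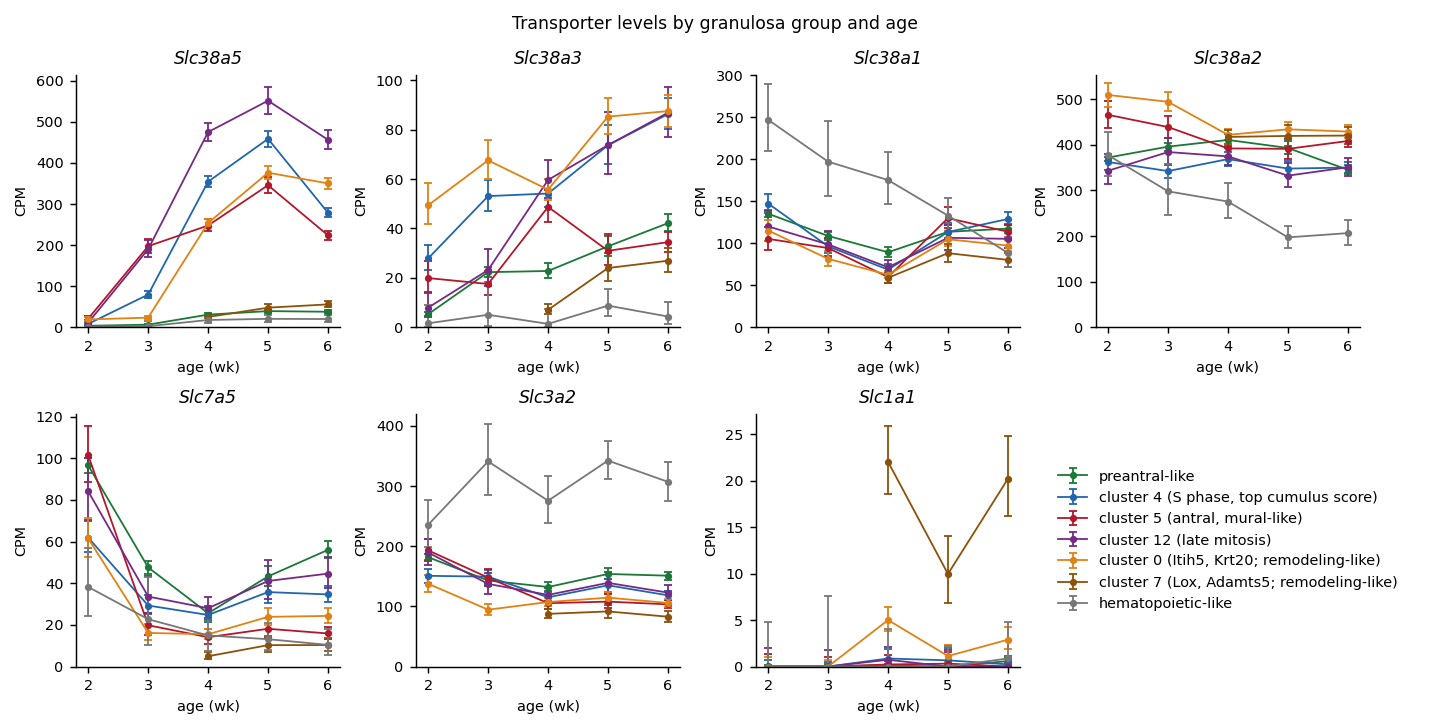
Level of each transporter (CPM, linear axes from 0) by age (wk) in the preantral-like clusters together, clusters 4, 5, 12, 0 and 7, and hematopoietic-like cells. Points are single libraries with at least 50 cells of the group and bars are exact 95% Poisson intervals. Slc38a5 reaches 552 CPM in cluster 12 at 5 wk, Slc7a5 is highest at 2 wk in the granulosa groups, and Slc1a1 stands out in cluster 7.

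Shares of cells with a Slc38a5 UMI, after thinning each cell to 5000 UMIs, gave a similar picture. In cluster 12 the thinned share was 4.76% at 2 wk, 47.1% at 3 wk, 72.4% at 4 wk, 68.7% at 5 wk and 70.7% at 6 wk, against 16.5%, 67.3%, 87.9%, 84.9% and 89.4% before thinning. In the mural-like cluster it was 6.77% at 2 wk, 50.8% at 3 wk, 52.7% at 4 wk, 61.7% at 5 wk and 45.3% at 6 wk, against 22.3%, 71.8%, 75.6%, 81.3% and 69.6% before thinning. Thinning left out 1 to 5 cells per library of cluster 12 and 3 to 38 of cluster 5. In hematopoietic-like cells the thinned share was 7.41% [2.06, 17.9] at 4 wk, 7.78% [3.18, 15.4] at 5 wk and 2.35% [0.286, 8.24] at 6 wk, against 5.95%, 6.04% and 5.38% before thinning, with 30 to 92 cells left out. Their median cell held 6656 UMIs, against 15374 in cluster 5. Smooth muscle-like cells gave 3.57%, 1.56% and 2.24% at 4, 5 and 6 wk after thinning, and the preantral-like cluster 3 gave 2.94%, 2.80% and 3.38%.

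**Figure D2:**
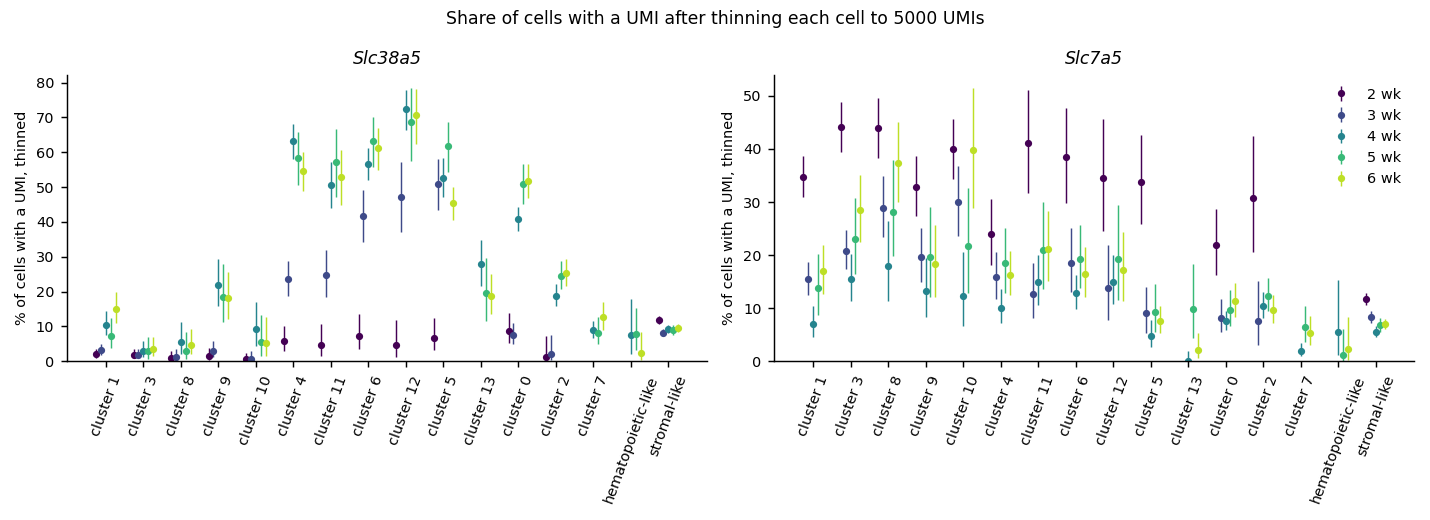
Share of cells (%) with a UMI of Slc38a5 (left) or Slc7a5 (right) after thinning each cell to 5000 UMIs, by granulosa cluster and for hematopoietic-like and stromal-like cells. Points are libraries, coloured by age, and bars are exact 95% binomial intervals. From 4 wk Slc38a5 is between 40.8% and 72.4% of cells in clusters 0, 4, 5, 6, 11 and 12, and the Slc7a5 share is highest at 2 wk in every granulosa cluster shown at that age.

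Cluster 4 held 8.16 CPM at 2 wk, 79.6 at 3 wk, 354 at 4 wk, 459 at 5 wk and 279 at 6 wk of Slc38a5, and its ratio to the mural-like cluster was 0.392 [0.246, 0.621] at 2 wk, 0.403 [0.356, 0.456] at 3 wk, 1.43 [1.33, 1.54] at 4 wk, 1.33 [1.23, 1.43] at 5 wk and 1.25 [1.17, 1.32] at 6 wk. The ratio was below 1 in the younger pair of libraries and above 1 in the other 3. Of the 6 members with enough UMIs, 0 were at least 1.5-fold higher and 0 at least 1.5-fold lower in every library, where 4.14% of 10050 genes were higher and 1.18% lower. Without integration, where 2 libraries had enough cells, Slc38a5, Slc38a3 and Slc7a5 passed in both. Passing in 2 libraries asks less than passing in all 5, and no share of all genes is given for it, so this count cannot be judged. With cell cycle scores regressed out, a clustering added after the levels had been seen, the cluster of highest cumulus score (4 of 10 cumulus markers detected, led by Psd, Cox4i2, Cdc6 and Mcm3) held 9.54 at 2 wk, 178 at 3 wk, 483 at 4 wk, 689 at 5 wk and 442 at 6 wk CPM. Its ratio to the mural-like cluster of that clustering was 0.352 at 2 wk, 0.847 at 3 wk, 2.12 at 4 wk, 2.35 at 5 wk and 2.44 at 6 wk.

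Slc38a3, the other system N carrier, had a higher ratio of granulosa-like to other named cells than any other member in each library. Granulosa-like cells held 10.6 CPM at 2 wk, 31.2 at 3 wk, 41.1 at 4 wk, 53.1 at 5 wk and 59.1 at 6 wk, and other named cells 0.554 to 3.01 CPM. The ratio was 19.1 [13.5, 27.9] at 2 wk, 25.8 [19.4, 35.1] at 3 wk, 13.7 [11.2, 16.7] at 4 wk, 33.8 [27.3, 42.4] at 5 wk and 32.9 [27.1, 40.3] at 6 wk. Slc38a3 and Slc38a1 were the 2 of 7 members at least 1.5-fold higher in granulosa-like cells in every library and 0 were lower, where 12.1% of 14772 genes were higher and 18.5% lower. Among the clusters it was highest in cluster 0 at 2, 3, 5 and 6 wk (49.4, 67.6, 85.3 and 87.5 CPM) and in cluster 12 at 4 wk (59.6 CPM). The antral-like over preantral-like ratio changed sides, at 3.76 [2.62, 5.30] at 2 wk, 0.786 [0.579, 1.05] at 3 wk, 2.14 [1.76, 2.60] at 4 wk, 0.945 [0.740, 1.20] at 5 wk and 0.818 [0.707, 0.944] at 6 wk. Cluster 4 was above the mural-like cluster in all 5 libraries, by 1.40 [0.982, 2.03] at 2 wk, 3.03 [2.26, 4.14] at 3 wk, 1.11 [0.938, 1.32] at 4 wk, 2.38 [1.90, 3.01] at 5 wk and 2.50 [2.18, 2.88] at 6 wk, with intervals that included 1 at 2 and 4 wk. Both patterns depend on the clustering. Antral-like over preantral-like the ratio was above 1 in every library with the transporters kept among the clustered genes (1.43 to 4.98), without integration (1.55 to 4.28 in 4 libraries) and with cell cycle scores regressed out (1.20 to 3.88), and above 1 at 2 wk alone at resolution 0.6 (0.279 to 1.38). In all of these but resolution 0.6, the cluster of highest cumulus score was itself named antral and counted in the antral-like group. In the main clustering and at resolution 0.6 it was named as dividing and did not count there, so these ratios are not of like groups. Between the cluster of highest cumulus score and the mural-like cluster it was at least 1.5-fold higher in every library with cell cycle scores regressed out (1.87 to 4.08) and below 1 at 2 wk at resolution 0.6 (0.922 to 4.13).

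The system A carriers varied less among granulosa clusters. Slc38a2 held 383 CPM at 2 wk, 397 at 3 wk, 405 at 4 wk, 394 at 5 wk and 383 at 6 wk in granulosa-like cells, and its ratio to other named cells was 0.968 to 1.34. Antral-like over preantral-like it was 0.955 to 1.25, and cluster 4 over the mural-like cluster it was 0.778 at 2 wk, 0.780 at 3 wk, 0.940 at 4 wk, 0.889 at 5 wk and 0.857 at 6 wk, below 1 in each library. Slc38a1 held 127 CPM at 2 wk, 94.7 at 3 wk, 64.6 at 4 wk, 102 at 5 wk and 105 at 6 wk in granulosa-like cells, lowest at 4 wk, which was 4.81 to 11.4 times the level of other named cells. Hematopoietic-like cells nevertheless held more of it at 2 to 5 wk, with 247 CPM at 2 wk, 197 at 3 wk, 175 at 4 wk, 133 at 5 wk and 88.4 at 6 wk. Surface epithelial-like cells were above granulosa-like cells at 4 to 6 wk, with 101 CPM at 4 wk, 145 at 5 wk and 162 at 6 wk, and rete ovarii-like cells were at 108 CPM at 3 wk, so granulosa-like cells were the highest class at no age. Its antral-like over preantral-like ratio was 0.669 to 1.14.

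**Figure D3:**
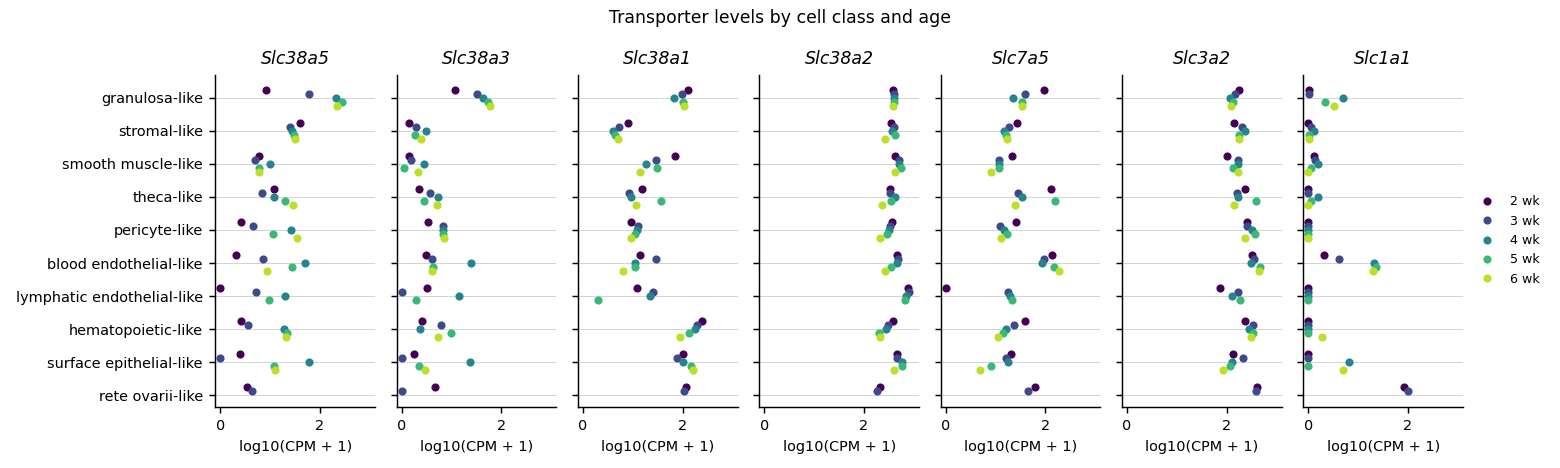
Level of each transporter, as log10(CPM + 1), in the named cell classes. Points are libraries, coloured by age, with at least 30 cells of the class. Slc38a3 is highest in granulosa-like cells at each age, Slc38a5 is highest there from 3 wk, Slc38a2 and Slc3a2 are found in all classes, and Slc1a1 is highest in rete ovarii-like cells at 2 and 3 wk.

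In granulosa-like cells Slc7a5 was highest at 2 wk, which is not particular to them. Stromal-like cells held 26.5 CPM at 2 wk and 13.9 to 17.7 later. Smooth muscle-like cells held 20.5 CPM and then 7.16 to 10.6, and hematopoietic-like cells 38.2 and then 10.4 to 22.7. Pericyte-like and surface epithelial-like cells were also highest at 2 wk, on 31 and 26 UMIs. Their 2 wk intervals overlapped those of each later age, and that of hematopoietic-like cells overlapped those at 3 and 4 wk. Blood endothelial-like, lymphatic endothelial-like and theca-like cells were not highest at 2 wk. Granulosa-like cells held 90.7 CPM at 2 wk, 38.5 at 3 wk, 21.1 at 4 wk, 33.3 at 5 wk and 33.7 at 6 wk. In the mural-like cluster it was 101 CPM [88.4, 116] at 2 wk, 19.8 [15.1, 25.5] at 3 wk, 14.1 [10.8, 18.0] at 4 wk, 18.1 [13.8, 23.4] at 5 wk and 15.9 [13.3, 18.9] at 6 wk, with the 2 wk library apart from all others. Antral-like over preantral-like the ratio was 1.05 [0.911, 1.21] at 2 wk, 0.417 [0.316, 0.541] at 3 wk, 0.550 [0.410, 0.729] at 4 wk, 0.419 [0.311, 0.555] at 5 wk and 0.283 [0.234, 0.342] at 6 wk. The groups did not differ beyond counting error at 2 wk, and cluster 5, the whole antral-like group, was lower at the other ages. The dividing clusters together held 79.1 CPM at 2 wk, 33.0 at 3 wk, 28.2 at 4 wk, 41.0 at 5 wk and 39.5 at 6 wk. The preantral-like clusters held 96.6, 47.6, 25.6, 43.3 and 56.0 CPM at these ages. Antral stage, mural identity and dividing state cannot be told apart in this ratio. Cluster 8, preantral-like and led by Gldn and Wnt6, was the highest cluster in every library, at 114 CPM at 2 wk, 73.2 at 3 wk, 36.9 at 4 wk, 68.8 at 5 wk and 86.3 at 6 wk. Cluster 4 over the mural-like cluster the ratio was 0.610 [0.509, 0.733] at 2 wk, 1.48 [1.09, 2.02] at 3 wk, 1.76 [1.31, 2.39] at 4 wk, 1.97 [1.45, 2.71] at 5 wk and 2.18 [1.77, 2.70] at 6 wk. Outside granulosa cells, blood endothelial-like cells held 132 CPM at 2 wk, 94.8 at 3 wk, 84.1 at 4 wk, 149 at 5 wk and 191 at 6 wk, highest at 6 wk. Theca-like cells held 126 CPM at 2 wk, 27.2 at 3 wk, 33.3 at 4 wk, 152 at 5 wk and 23.1 at 6 wk, high at 2 and 5 wk.

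Slc3a2, whose protein pairs with that of Slc7a5, was likewise highest at 2 wk in granulosa-like cells, over a narrower range. Granulosa-like cells held 177 CPM at 2 wk, 144 at 3 wk, 118 at 4 wk, 134 at 5 wk and 121 at 6 wk, and the ratio to other named cells was 1.20 at 2 wk, 0.722 at 3 wk, 0.534 at 4 wk, 0.513 at 5 wk and 0.664 at 6 wk. Antral-like over preantral-like it was 1.06 [0.960, 1.17] at 2 wk, 1.03 [0.933, 1.14] at 3 wk, 0.797 [0.715, 0.887] at 4 wk, 0.701 [0.620, 0.792] at 5 wk and 0.685 [0.631, 0.742] at 6 wk. Theca-like cells held 233 CPM at 2 wk, 158 at 3 wk, 169 at 4 wk, 388 at 5 wk and 140.3 at 6 wk, again highest at 2 and 5 wk. Over 66 points of cluster and library, Slc3a2 was the gene most like Slc7a5 among 12762 genes, with a Pearson's r of log2(CPM + 1) of 0.875, and 0.863 with each library centred on its own mean. The points share libraries and differ in depth, so this r is a description. In granulosa-like cells thinned to 5000 UMIs, 58.6% of cells with a Slc7a5 UMI had one of Slc3a2 at 2 wk, against 53.2% of the other cells, and at 6 wk the shares were 50.4% and 40.7%. These cells mix clusters. In cluster 8, the highest in Slc7a5, the order was the other way at 2 wk (58.8% against 62.1%) and 6 wk (55.6% against 59.4%). At 3 wk cluster 8 had the pooled order (62.5% against 54.2%), and cluster 3 did not (52.0% against 55.6%). Every other cluster and library with at least 50 cells holding a Slc7a5 UMI had the pooled order. The shares there ranged from close (cluster 0 at 4 wk, 41.5% against 40.9%) to apart (cluster 2 at 4 wk, 62.5% against 40%). No interval was made for these differences, so no order is read from a single cluster.

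Slc1a1 was sparse, with 859 UMIs in all cells, and its highest granulosa level was in cluster 7, remodeling-like with Lox and Adamts5. Cluster 7 held 22.0 CPM [18.6, 25.9] at 4 wk, 9.97 [6.82, 14.1] at 5 wk and 20.2 [16.2, 24.8] at 6 wk, and had 1 cell at 2 wk and 17 at 3 wk. Cluster 0 held 5.00 CPM at 4 wk, 1.13 at 5 wk and 2.89 at 6 wk. Cluster 2 held 4.42 CPM at 4 wk, 0.806 at 5 wk and 4.38 at 6 wk. The mural-like cluster had 0 UMIs at 2, 3 and 6 wk, which allows up to 1.39, 0.992 and 0.367 CPM, and 1 UMI at 4 and at 5 wk, so Slc1a1 was not detectable above the floor in the antral-like group. Rete ovarii-like cells held 82.1 CPM [63.5, 104] at 2 wk and 101 [68.0, 144] at 3 wk in 54 and 32 cells, and blood endothelial-like cells 20.2 CPM at 4 wk, 21.9 at 5 wk and 18.5 at 6 wk. Hematopoietic-like cells had 0 UMIs at 2 to 5 wk and 1 at 6 wk. Fewer cells with a transcript and less of it per cell cannot be told apart in a summed level.

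The study set antral granulosa cells of 2 wk against those of 5 wk over all its antral granulosa clusters. It did so to compare wave 1 follicles, which grow from around birth, with wave 2 follicles, which first rest as primordial follicles. Age and follicle wave cannot be told apart in a ratio of these ages. The ratio here uses the mural-like cluster 5 alone, so it is not the same comparison. The study's follicle counts held no antral follicles before 3 wk, so at 2 wk the name antral-like rests on markers. In the antral-like cluster (139 and 193 cells), 5 members had at least 200 UMIs over both ages, of which 1 was at least 1.5-fold higher and 2 at least 1.5-fold lower at 5 wk, where 6.01% of 3913 genes were higher and 6.49% lower. Slc38a5 was 16.6 [12.3, 22.9] times its 2 wk level, Slc7a5 0.179 [0.132, 0.240] times and Slc3a2 0.559 [0.483, 0.646] times. Slc38a3 was 1.55 [1.08, 2.28] times its 2 wk level, but with 99 UMIs at 5 wk and 43 at 2 wk it had too few to be counted. Slc38a2 was 0.840 [0.772, 0.913] times and Slc38a1 1.23 [1.05, 1.46] times its 2 wk level. With the transporters kept among the clustered genes Slc38a3 passed as higher (2.13 times) and Slc3a2 no longer passed (0.711 times). With cell cycle scores regressed out Slc38a3 passed as well (2.96 times). In both settings the antral-like group also held the cluster of highest cumulus score, so these ratios are not of the mural-like cluster alone. At resolution 0.6 Slc7a5 was 0.138 and Slc3a2 0.565 times, and 1 of them had enough UMIs to be counted. The tables of 2 to 4 wk came from version 3.1.0 of Cell Ranger and the later ones from version 6.0.1, and the part of that change in this ratio was not tested. Between 2 and 3 wk, both made with 3.1.0, cluster 5 went from 20.8 to 197 CPM for Slc38a5 and from 101 to 19.8 CPM for Slc7a5.

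**Figure D4:**
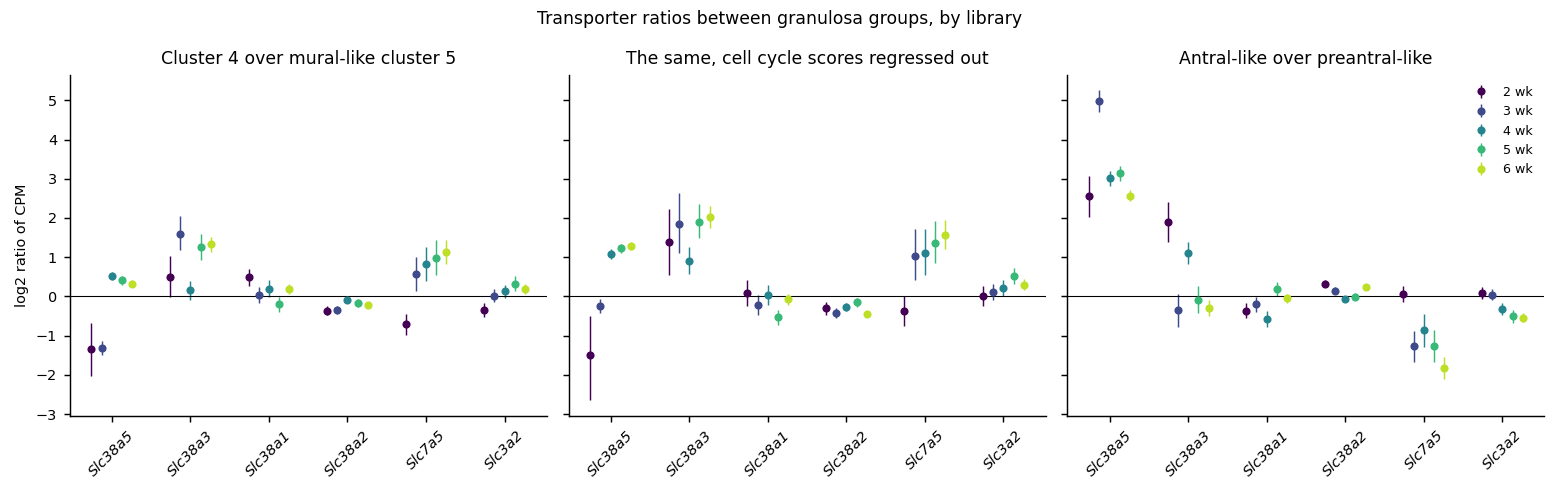
Ratio of CPM (log2 scale) of 6 transporters by library, for cluster 4 over the mural-like cluster 5 (left), for the clusters with the same roles after regressing out cell cycle scores (middle), and for antral-like over preantral-like cells (right). Bars are exact 95% intervals conditional on the sum of both counts, and the line at 0 marks equal levels. Slc38a5 is above 0 at each age on the right, and below 0 at 2 and 3 wk and above 0 later in the other panels.

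Of 53 listed amino acid transporters, 27 had enough UMIs over antral-like and preantral-like cells. In every library 4 were at least 1.5-fold higher in the antral-like group and 1 was lower, where 2.79% and 5.08% of all genes were, and the median log2 ratio was -0.08, beside -0.07 over all genes. The list holds the 7 members, and 1 of the 4 is Slc38a5, chosen by its levels in antral clusters of these cells. The count is thus in part set by that choice, and it was made with the main clustering alone. The genes named next were chosen after their values were seen. Beside Slc38a5 the higher ones were Slc7a8 (LAT2, which also pairs with the Slc3a2 protein; 2.36 to 5.68 times), the taurine transporter Slc6a6 (1.65 to 4.30 times) and the neutral amino acid transporter Slc6a15 (1.66 to 3.77 times). The lower one was the glutamate transporter Slc1a3 (0.112 to 0.581 times). For cluster 4 over the mural-like cluster, 0 of 21 passed in either direction, with a median log2 ratio of 0.16 beside -0.03 over all genes, and 4.14% of all genes passed as higher and 1.18% as lower. For granulosa-like over other named cells, 6 of 36 were higher and 7 lower in every library, near the 12.1% and 18.5% of all genes.

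Of 15 genes listed for the amino acid response, 12 had enough UMIs in cluster 4 and the mural-like cluster, with 4 at least 1.5-fold higher and 1 lower in every library, beside 4.14% and 1.18% of all genes. Those higher were Psat1 and Phgdh of serine synthesis (median ratios 3.46 and 2.27), Mthfd2 of mitochondrial folate metabolism (1.98) and, beyond the 4 genes the rule names and so chosen after the values were seen, the asparagine synthetase Asns (1.90). The lower one was Ddit4, an inhibitor of mTORC1 (0.257). Over antral-like and preantral-like cells 12 of the list had enough UMIs. Ddit4 was the 1 gene higher in the antral-like group in every library, 2.20 to 3.95 times, and 0 were lower, beside 2.79% and 5.08% of all genes. Cluster 5 is in both comparisons, so the 2 Ddit4 results are not independent. Of 10 junction and coupling genes, 9 had enough UMIs over antral-like and preantral-like cells. In every library 3 were at least 1.5-fold higher and 1 lower, beside 2.79% and 5.08% of all genes, and 5 were neither. Gja1, which encodes connexin 43, was 2.55 to 4.71 times higher in the antral-like group, the BMP receptors Bmpr2 and Bmpr1b 2.04 to 3.22 and 2.25 to 2.86 times, and Myo10, a motor of filopodia, was at 0.326 to 0.439 times. For cluster 4 over the mural-like cluster, 9 had enough UMIs, with 0 higher and 1 lower (Bmpr2), beside 4.14% and 1.18% of all genes. The median log2 ratio there was -0.64, beside -0.03 over all genes. As for Ddit4, cluster 5 is in both comparisons, so the 2 Bmpr2 results are not independent.

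The genes most like each member over the 66 points are given with the pooled r and the r within libraries. For Slc38a5 they were Fam183b (0.917, 0.879 within libraries), Nap1l5 (0.899, 0.906 within libraries) and Apoa4 (0.896, 0.899 within libraries). For Slc38a3 they were Apoa4 (0.862, 0.854 within libraries), Eif3g (0.848, 0.798 within libraries) and Rims4 (0.847, 0.868 within libraries). Slc38a5 and Slc38a3 themselves gave 0.809 and 0.754. For Slc1a1 they were Lox (0.864, 0.852 within libraries), Grm8 (0.848, 0.834 within libraries) and Dpp4 (0.838, 0.841 within libraries). The median Slc1a1 level over libraries was 0 CPM in clusters 1, 5 and 8 to 13. Its r therefore rests on few points, above all those of cluster 7 (median 20.2 CPM), where Lox is a leading gene. For Slc38a1 they were Ssbp1 (0.812, 0.555 within libraries), Senp3 (0.794, 0.510 within libraries) and Tcea1 (0.786, 0.512 within libraries), all lower within libraries. For Slc38a2 they were Greb1l (0.671, 0.710 within libraries), Pde7b (0.663, 0.713 within libraries) and Tbc1d12 (0.658, 0.677 within libraries). After each other, Slc7a5 was most like Rara (0.842, 0.801 within libraries) and Gm14226 (0.839, 0.822 within libraries), and Slc3a2 most like Ssbp4 (0.872, 0.845 within libraries) and Gm14226 (0.869, 0.861 within libraries).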

How the data were processed

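Single-cell RNA was counted in 5 libraries of mouse ovarian cells, 1 per age. The authors deposited UMI counts per gene and cell from Cell Ranger, version 3.1.0 (2 to 4 wk) or 6.0.1 (5 and 6 wk) per the file headers, with the build mm10 and Seurat 4.1.0 in the submitters' processing notes. All deposited cells were kept. Libraries were integrated and clustered in Seurat 5.3.0 (R 4.3.3; 2000 variable genes, 30 principal components, resolution 1), after the study's workflow, and granulosa-like cells were clustered again without the listed amino acid transporters. Doublets were called with Scrublet in scanpy 1.11.5 and kept. A marker counted as detected when at least 10% of cells had a UMI and its level was 1.5 times that of the median cluster, and 3 markers were needed for a name. The rule that picks the cluster of highest cumulus score was set after the clusters were seen.

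Counts were summed per group and library and given as CPM with exact Poisson intervals, shares with exact Clopper-Pearson intervals, and ratios with exact intervals conditional on the sum of both counts (scipy 1.17.1). The floor was 3 counts. With 1 library per age no test was made. Ratios needed at least 50 cells in each group and, for counts of genes, 200 UMIs. The text names all 7 members, the 3 genes most like each, listed transporters past 1.5-fold in every library for cumulus over mural, and up to 4 genes of each other list, and says where others are named. The members and lists were chosen with earlier results of these data known. The ratio calculation was tested on simulated data. The alternatives are given in the closing section.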

Additional observations from a re-analysis of the deposited data

Results flagged for a closer look

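The ratios below lay on both sides of 1 at different ages, with intervals that did not include 1. Each age is 1 library, so the difference between ages was not tested. For cluster 4 over the mural-like cluster, the ratio of Slc38a5 was 0.392 at 2 wk, 0.403 at 3 wk, 1.43 at 4 wk, 1.33 at 5 wk and 1.25 at 6 wk. That of Slc38a1 was 1.40 at 2 wk, 0.873 at 5 wk and 1.13 at 6 wk. That of Slc7a5 was 0.610 at 2 wk, 1.48 at 3 wk, 1.76 at 4 wk, 1.97 at 5 wk and 2.18 at 6 wk. That of Slc3a2 was 0.781 at 2 wk, 1.25 at 5 wk and 1.14 at 6 wk. For granulosa-like over other named cells, the ratio of Slc38a5 was 0.241 at 2 wk, 3.13 at 3 wk, 9.33 at 4 wk, 13.0 at 5 wk and 8.94 at 6 wk. That of Slc7a5 was 2.89 at 2 wk, 2.10 at 3 wk, 1.27 at 4 wk, 0.541 at 5 wk and 1.74 at 6 wk. That of Slc3a2 was 1.20 at 2 wk, 0.722 at 3 wk, 0.534 at 4 wk, 0.513 at 5 wk and 0.664 at 6 wk. That of Slc1a1 was 0.0163 at 2 wk, 0.0476 at 3 wk, 4.32 at 4 wk, 0.530 at 5 wk and 3.70 at 6 wk. Granulosa-like cells had 1 Slc1a1 UMI at 2 wk and 2 at 3 wk. Of the Slc1a1 UMIs of other named cells, rete ovarii-like cells gave 66 of 69 at 2 wk and 30 of 36 at 3 wk. Blood endothelial-like cells gave 112 of 116 at 5 wk. Theca-like cells gave 2137 of the 3413 Slc7a5 UMIs of other named cells at 5 wk. The part of the mix of classes in these ratios was not tested. For antral-like over preantral-like cells, the ratio of Slc38a3 was 3.76 at 2 wk, 2.14 at 4 wk and 0.818 at 6 wk. That of Slc38a1 was 0.778 at 2 wk, 0.867 at 3 wk, 0.669 at 4 wk and 1.14 at 5 wk. Hematopoietic-like cells, which give one level for free RNA, were higher in Slc38a5 from 4 wk, and the part of free RNA in these ratios was not tested. No group had 4 or more samples, so no sample could be checked against the others of its group.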

How the results depend on the processing

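Leaving out called doublets, requiring 1000 genes and less than 10% mitochondrial UMIs in a cell, leaving mitochondrial and ribosomal protein genes out of the CPM, or averaging the CPM of single cells left every count of members and listed transporters past the threshold within 1.5 times. Under the alternatives, listed transporters were counted only for the cluster of highest cumulus score over the mural-like cluster. Other clusterings moved some counts, and these are given without the share of all genes under the same setting. With the transporters kept among the clustered genes, 2 members were higher and 1 lower at 5 wk than at 2 wk. At resolution 0.6, 1 listed transporter was lower in the cluster of highest cumulus score, 1 member was lower at 5 wk, and 0 members were higher in antral-like than in preantral-like cells. Without integration, 3 members and 6 listed transporters were higher and 1 listed transporter lower in the cluster of highest cumulus score (2 libraries had enough cells), 2 members were higher in antral-like cells (4 libraries), and the median log2 ratio of Slc38a3 between antral-like and preantral-like cells turned to 0.93, as it was above 0 with the transporters kept and with cell cycle scores regressed out. In the settings with Slc38a3 above 0, the antral-like group also held the cluster of highest cumulus score. The age comparison had too few cells without integration and gave no value. With cell cycle scores regressed out, added after the data were seen with resolutions 0.6, 1 and 1.5 inspected, 1 member (Slc38a3) and 1 listed transporter were higher in the cluster of highest cumulus score, and 2 members were higher at 5 wk. The causes were not tested. No paired analysis was possible because each age has 1 library and no test was made. Of the values of single genes in the comparisons and settings chosen at the start, 111 stayed close to the reported value and 9 moved. Close means that the median log2 ratio shifted by less than the standard deviation of the gene's log2 ratios over the libraries. For the age comparison it means a value inside the counting interval. Where a ratio varied widely with age, as for Slc38a5 over other named cells, a large shift still counts as close. These counts therefore do not measure how stable such values are. Of the rest, 52 stayed close, 13 moved and 1 reversed. The rest are antral-like over preantral-like values under every setting, and all values with cell cycle scores regressed out. Slc1a1 had too few UMIs for most ratios.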
